A study of Mus musculus with 9 samples.

Results

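The phagocyte NADPH oxidase was followed through 6 of its subunit genes, Cybb, Cyba, Ncf1, Ncf4, Rac2 and Rac1, in mouse bone marrow cells that carried a NUP98-CDX1 fusion, a NUP98-CDX4 fusion or EGFP. The members were chosen by symbol: all probes that the platform annotation gives to these genes, 8 of the 45281 probes and 6 of the 19057 genes with 1 symbol. Cybb and Ncf1 had 2 probes each, called probe 1 (the brighter) and probe 2 below, and the others had 1.

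Total RNA of 9 samples, 3 per group, was measured on Illumina bead arrays of 1 colour. Every group, EGFP included, came from the marrow of C57/B6 mice aged 6-8 weeks treated with 5-FU, which kills cycling cells and so leaves marrow enriched in primitive ones. The 3 groups differed in the construct put in, which was NUP98-CDX1, NUP98-CDX4 or, as the control, EGFP (a fluorescent protein), and all were cultured in IMDM with IL-6, stem cell factor and 2% serum. In the fusions, part of the nuclear pore protein NUP98 is joined to a CDX homeobox protein. The labels do not say which promoter drives the constructs, or whether replicates are separate cultures or animals, so a p-value measures only the spread between these samples. The column names carry day numbers of unstated meaning, 28 on the NUP98-CDX1 columns, 17, 17 and 20 on those of NUP98-CDX4 and 21 on those of EGFP, so day and group cannot be told apart.

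The oxidase makes superoxide from oxygen with electrons taken from NADPH, and neutrophils and macrophages use it to kill ingested microbes. Its catalytic core is a membrane cytochrome of the Cybb and Cyba products; on activation cytosolic subunits, among them the products of Ncf1 and Ncf4, move to that core together with a GTP-loaded Rac protein. Rac2 is largely restricted to blood cells, while Rac1 is made in most cell types. In marrow, the cytochrome and cytosolic subunits accumulate as myeloid cells mature, and loss of Cybb, Cyba, Ncf1 or Ncf4 function is known as a cause of chronic granulomatous disease in humans.

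The promoters of the 3 subunit genes with an entry in the promoter table, Cybb, Cyba and Ncf1, are shown because factors of the interferon regulatory, ETS and homeobox families are known to act on oxidase genes. The 250 bases before the annotated start are given 5′ to 3′ from RefSeq, build GRCm38.p6, all on the minus strand, at chrX:9469325-9469574 for Cybb, chr8:122432941-122433190 for Cyba and chr5:134229626-134229875 for Ncf1. For Cybb this start lies inside the gene as annotated, which runs from 9435252 to 9487766, so its window does not precede the gene's outer end. Capitals mark GAAA followed, after any 2 bases, by a further GAAA on either strand, the letters of an interferon response element.
Cybb: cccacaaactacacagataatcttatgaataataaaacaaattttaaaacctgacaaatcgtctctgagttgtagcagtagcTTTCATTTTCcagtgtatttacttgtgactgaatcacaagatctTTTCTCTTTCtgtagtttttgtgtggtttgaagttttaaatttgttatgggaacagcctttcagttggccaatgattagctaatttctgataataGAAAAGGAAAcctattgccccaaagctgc
Cyba: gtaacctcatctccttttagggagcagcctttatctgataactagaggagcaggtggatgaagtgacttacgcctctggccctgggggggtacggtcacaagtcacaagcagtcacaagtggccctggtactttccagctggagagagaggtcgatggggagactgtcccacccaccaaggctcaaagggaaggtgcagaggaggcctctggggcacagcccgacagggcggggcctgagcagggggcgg
Ncf1: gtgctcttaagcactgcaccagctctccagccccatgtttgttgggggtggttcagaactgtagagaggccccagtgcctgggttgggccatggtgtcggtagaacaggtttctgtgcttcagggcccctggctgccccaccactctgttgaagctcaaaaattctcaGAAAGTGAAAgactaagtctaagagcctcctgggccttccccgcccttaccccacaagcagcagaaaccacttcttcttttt

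Cybb held 3 matches, whose first bases lay 168, 124 and 29 bases before the start, and Ncf1 held 1, at 82 bases. Cyba held no match. Of 32851 promoters in the table, 2.98% held this pair in the same 250 bases. GAGGAA, letters in sites of the ETS factor PU.1, was found in none of the 3 windows and in 23.3% of all. The shorter GGAA alone was not searched. TTTAT, letters in the sites that CDX proteins prefer, was found once each in Cybb and Cyba, at 219 and 221 bases before the start, and in 37.3% of all. Both strands were searched, and no matches of different motifs overlapped. A match is a description of letters, not of binding.

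Between 17257 and 19300 probes were detected per array, and precision is limited by there being 3 arrays a group. The arrays fell into 2 sets that the groups do not explain, found by clustering the signals of the 21684 probes detected on no array. The brighter set held replicate 3 of NUP98-CDX1, 1 and 3 of NUP98-CDX4, and 1 and 2 of EGFP, and the dimmer set held the other 4 arrays. Rank correlations over those probes were at least 0.73 in the brighter and 0.43 in the dimmer set, and at most 0.38 between sets. Subunit differences from EGFP are therefore given without and with array set as a term of the model (set-adjusted), and within each set; for other genes, set-adjusted counts are given and a set-adjusted p where the term changed a call that is described. Every dimmer-set difference from EGFP, and the brighter-set one of NUP98-CDX1, has a single array on at least 1 side. Xist, the RNA of the inactive X chromosome, was detected on replicate 1 of NUP98-CDX1 and replicates 1 and 2 of NUP98-CDX4, and on none of the other arrays. On those arrays the brighter probe of the Y chromosome gene Eif2s3y was undetected (4.51, 4.47 and 4.62), against 9.88 to 10.45 on the others. The brighter probe of Kdm5d, also on the Y chromosome, was likewise detected on the others only. By these genes the samples differed in sex. No EGFP array had Xist, so sex was unevenly spread over the groups and in part confounded with them.

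Without the set term, 0 of the 7 subunit probes that passed the detection filter differed from EGFP at an adjusted p under 0.05 in either fusion (limma). At an unadjusted p under 0.05 there were 3 lower and 0 higher in each fusion. Unadjusted counts, here and below, have no share over all probes beside them, so they are not read as a trait of the listed genes. Over all 19472 probes tested, 0.899% passed the adjusted threshold for NUP98-CDX1 and 4.85% for NUP98-CDX4. With the set term, 2 subunit probes passed as lower in NUP98-CDX1, as did 2.45% of all probes. For NUP98-CDX4 5 passed as lower, as did 7.23% of all probes, and no subunit probe passed as higher. The 7 probes had a median log2 difference of -0.15 in NUP98-CDX1, against 0.01 over all probes, and of -0.59 in NUP98-CDX4, against 0.02; with undetected groups held at the detection floor the members' medians were -0.15 and -0.58. Fewer cells of a type and less RNA per cell cannot be told apart in these bulk samples. Levels are log2 normalized intensities, and because probes differ in brightness, no probe's level is set against another's.

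**Figure D1:**
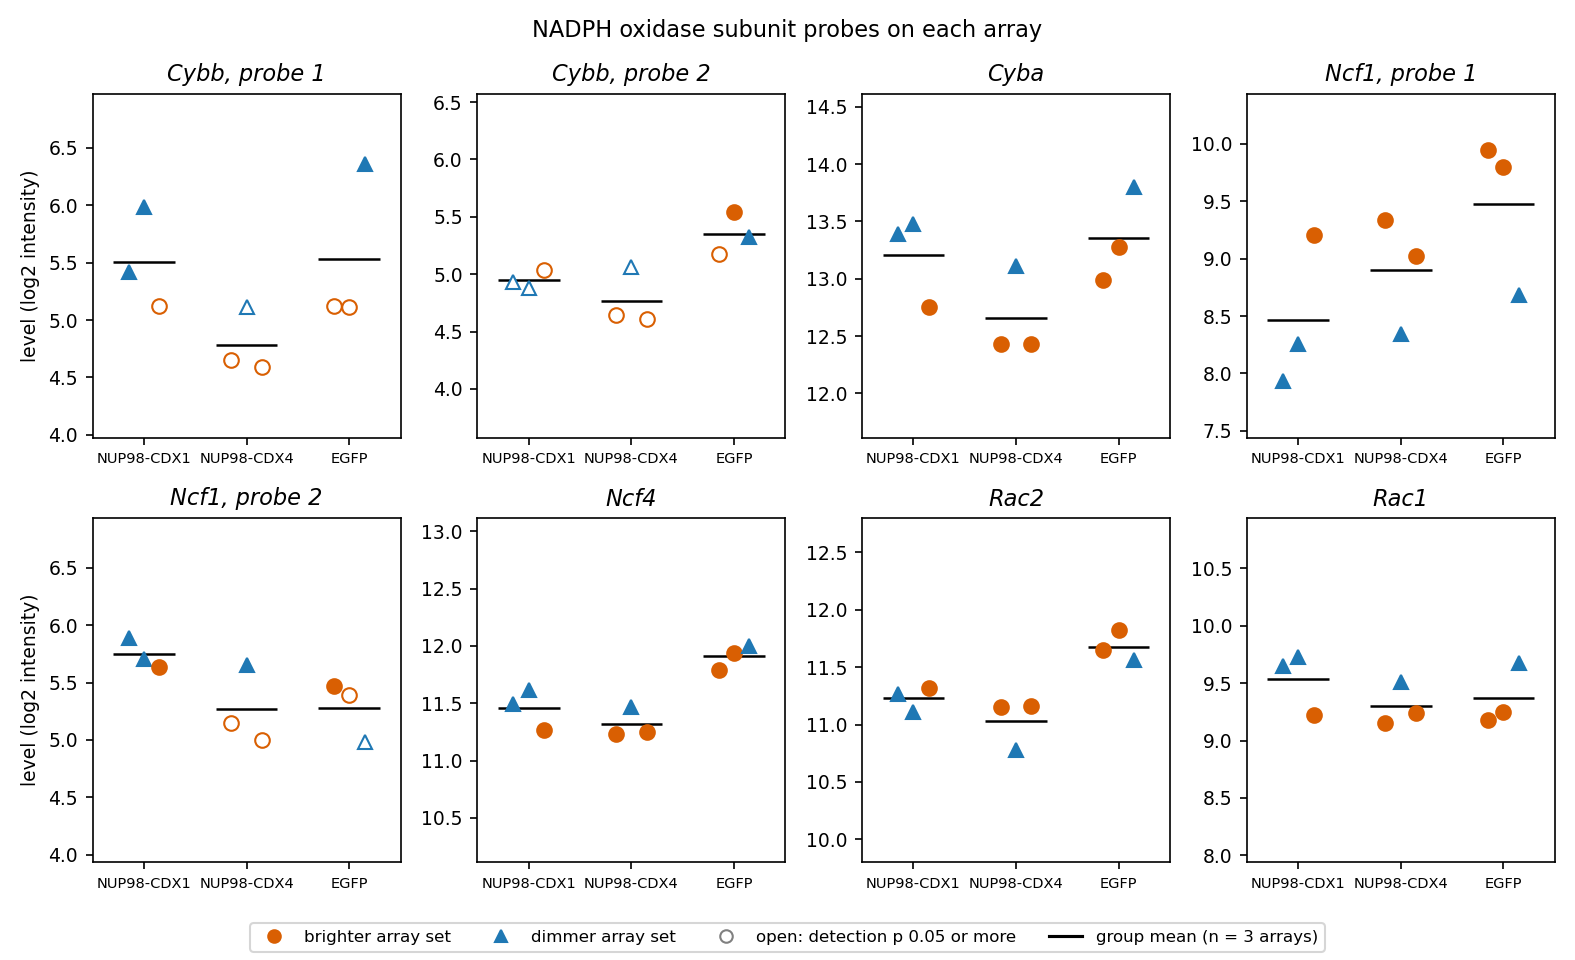
Level (log2 normalized intensity) of the 8 subunit probes on each array, by group, with 3 arrays per group; the marks give the array set and open marks a detection p of 0.05 or more. Ncf4 and Rac2 lay below every EGFP array in both fusions, while Rac1 overlapped in all 3 groups.

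Cybb, the catalytic subunit that carries electrons across the membrane, was at the edge of detection. Probe 1 read 5.42, 5.99 and 5.12 in NUP98-CDX1, 4.65, 5.11 and 4.59 in NUP98-CDX4, against 5.12, 5.11 and 6.36 in EGFP, and was detected on 2, 0 and 1 of the 3 arrays. NUP98-CDX4 lay below every NUP98-CDX1 array but overlapped EGFP in part, and the highest value was a single EGFP array. The difference from EGFP was -0.02 for NUP98-CDX1 (95% interval -0.82 to 0.78, adjusted p = 0.986) and, set-adjusted, -0.28 (adjusted p = 0.495), with 0 among brighter and -0.65 among dimmer arrays. For NUP98-CDX4, where no array detected it, the level was at least 1.13-fold lower than in EGFP, with an adjusted p of 0.392 and a set-adjusted p of 0.0293; the readings there differed by -0.49 among brighter and -1.24 among dimmer arrays. That bound rests on EGFP replicate 3, since the other EGFP arrays read below 5.35, the mean floor that stands for NUP98-CDX4. Probe 2 read 4.93, 4.88 and 5.04 in NUP98-CDX1, 4.64, 5.06 and 4.61 in NUP98-CDX4, against 5.18, 5.54 and 5.32 in EGFP. Both fusions lay below every EGFP array, but it was detected on 2 arrays, both EGFP, and missed the filter. In a fit on all probes it did not pass (adjusted p 0.514 for NUP98-CDX1 and 0.12 for NUP98-CDX4). Cybb lies on the X chromosome, and whether the uneven presence of Xist has a part in its values was not tested.

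Cyba, the small chain that stabilizes the cytochrome and docks the Ncf1 product, was detected on all 9 arrays. Its probe read 13.39, 13.48 and 12.75 in NUP98-CDX1, 12.43, 13.11 and 12.43 in NUP98-CDX4, against 12.99, 13.28 and 13.80 in EGFP. Within every group the brighter-set arrays were the lower ones, and both fusions overlapped EGFP. NUP98-CDX4 differed from EGFP by -0.70 (SE 0.29, 1.62-fold lower, adjusted p = 0.281). The difference was the same size with the set term, where it passed with an adjusted p of 0.00213, and inside the sets it was -0.70 (brighter) and -0.69 (dimmer). NUP98-CDX1 differed by -0.15 (95% interval -0.79 to 0.50, adjusted p = 0.867) and by -0.37 set-adjusted (adjusted p = 0.0893; -0.38 among brighter and -0.36 among dimmer arrays), so no difference was called there.

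Ncf1, the organizer that carries the cytosolic subunits to the cytochrome, gave different pictures with its 2 probes. Probe 1, detected on all arrays, read 7.93, 8.26 and 9.21 in NUP98-CDX1, 9.34, 8.34 and 9.02 in NUP98-CDX4, against 9.95, 9.80 and 8.68 in EGFP. Here the brighter-set arrays were the higher ones in every group, the opposite of Cyba, and the groups overlapped. The difference from EGFP was -1.01 for NUP98-CDX1 (SE 0.43, adjusted p = 0.428) and -0.66 with the set term (SE 0.14, 1.58-fold lower, adjusted p = 0.0357), with -0.66 among brighter and -0.59 among dimmer arrays. For NUP98-CDX4 it was -0.58 (SE 0.43, adjusted p = 0.69), and the set term narrowed the SE to 0.14 (adjusted p = 0.0235), with -0.69 among brighter and -0.34 among dimmer arrays. Probe 2 was near background, detected on 3 of 3 arrays in NUP98-CDX1, 1 of 3 in NUP98-CDX4 and 1 of 3 in EGFP. It read 5.89, 5.71 and 5.64 in NUP98-CDX1, 5.15, 5.65 and 5.00 in NUP98-CDX4, against 5.47, 5.39 and 4.98 in EGFP. All 3 NUP98-CDX1 arrays thus lay above EGFP, by 0.47 (adjusted p = 0.469; 0.264 with the set term), a separation that 8.54% of all probes showed, with 0.21 among brighter and 0.82 among dimmer arrays. NUP98-CDX4 differed by -0.01 (adjusted p = 0.996), with -0.35 among brighter and 0.68 among dimmer arrays. The probes' positions in the transcript are not given in the sources used here, and why they differ was not tested.

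Ncf4, which binds a membrane lipid and sustains the oxidase on phagosomes, stood apart from EGFP in both fusions. It read 11.49, 11.62 and 11.27 in NUP98-CDX1, 11.23, 11.47 and 11.25 in NUP98-CDX4, against 11.79, 11.94 and 12.00 in EGFP. Every array of both fusions lay below every EGFP array. The difference was -0.45 for NUP98-CDX1 (SE 0.16, 1.37-fold lower, adjusted p = 0.296) and -0.59 for NUP98-CDX4 (SE 0.16, adjusted p = 0.0692). With the set term both passed, at -0.52 (adjusted p = 0.0219) and -0.59 (adjusted p = 0.0038). Among brighter arrays the differences were -0.60 for NUP98-CDX1 and -0.62 for NUP98-CDX4; among dimmer arrays, NUP98-CDX1 was at -0.45 and NUP98-CDX4 at -0.52.

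Rac2, the blood cell GTPase that switches the assembled oxidase on, was placed like Ncf4. It read 11.27, 11.11 and 11.32 in NUP98-CDX1, 11.15, 10.78 and 11.16 in NUP98-CDX4, against 11.65, 11.82 and 11.56 in EGFP. Again no fusion array reached the lowest EGFP array, with NUP98-CDX4 replicate 2 the lowest of all. The difference was -0.44 for NUP98-CDX1 (SE 0.16, 1.36-fold lower, adjusted p = 0.338) and -0.65 for NUP98-CDX4 (SE 0.16, 1.57-fold lower, adjusted p = 0.0546). With the set term NUP98-CDX1 stayed short of the threshold at -0.37 (adjusted p = 0.0939; -0.42 among brighter and -0.37 among dimmer arrays), and NUP98-CDX4 passed (adjusted p = 0.00341), with -0.58 among brighter and -0.78 among dimmer arrays. Separation below EGFP, which Ncf4 and Rac2 showed in each fusion, was seen in 6.05% of all probes for NUP98-CDX1 and 9.09% for NUP98-CDX4.

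Rac1, the widely expressed GTPase that can serve the oxidase in place of Rac2, did not differ detectably. It read 9.65, 9.73 and 9.22 in NUP98-CDX1, 9.15, 9.51 and 9.24 in NUP98-CDX4, against 9.18, 9.25 and 9.68 in EGFP, so the 3 groups overlapped, with the dimmer-set arrays high in each. The difference from EGFP was 0.16 in NUP98-CDX1 (95% interval -0.29 to 0.62, adjusted p = 0.792) and -0.07 in NUP98-CDX4 (-0.53 to 0.38, adjusted p = 0.976). With the set term it was 0.03 (-0.20 to 0.25) and -0.07 (-0.28 to 0.14), with adjusted p of 0.922 and 0.677. Inside the sets NUP98-CDX1 was at 0.01 in both, and NUP98-CDX4 at -0.02 (brighter) and -0.18 (dimmer).

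**Figure D2:**
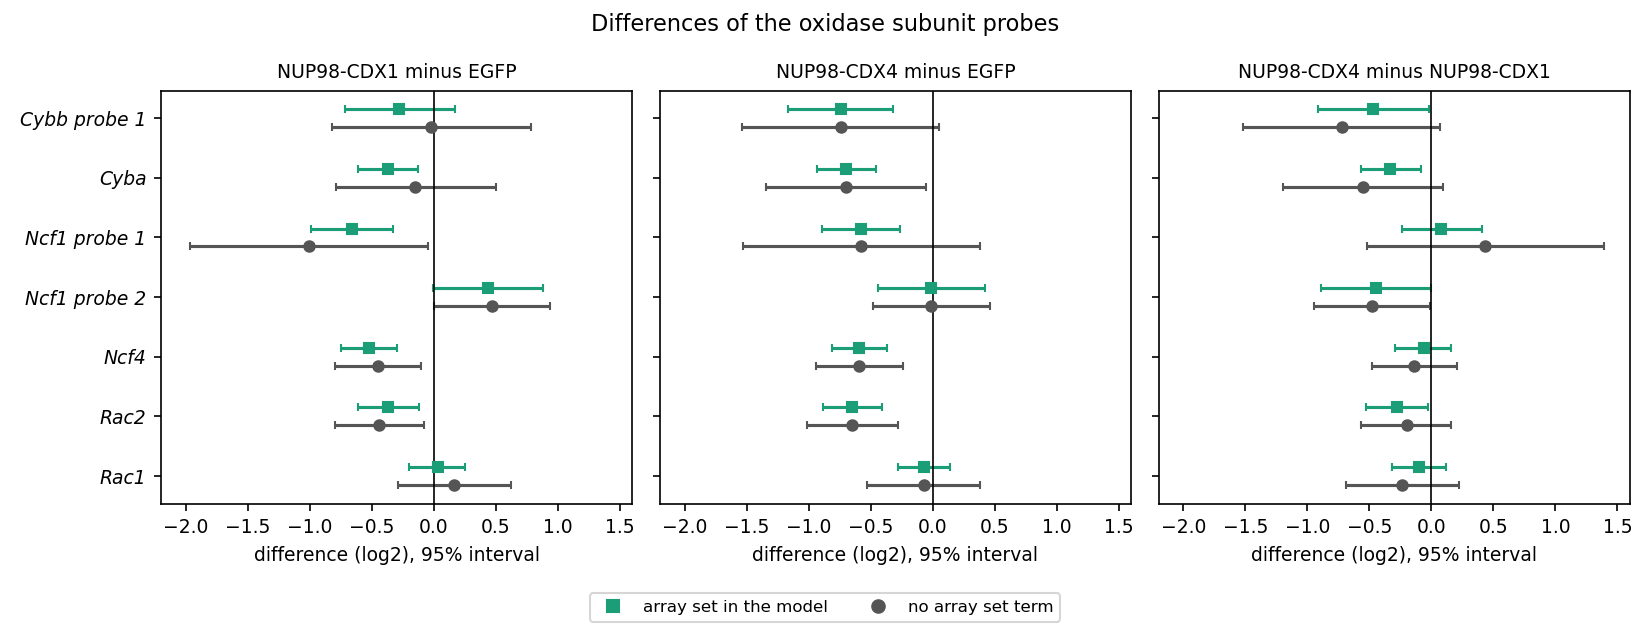
Log2 differences of the 7 tested subunit probes, with 95% intervals, without and with the array set as a term. Panels show NUP98-CDX1 minus EGFP, NUP98-CDX4 minus EGFP and NUP98-CDX4 minus NUP98-CDX1. The intervals, which are not adjusted for multiple testing, are narrower with the term. Against EGFP, those of Cyba, Ncf4 and Rac2 in NUP98-CDX4 lie below 0 either way, and those of Cybb and Ncf1 probe 1 with the term. Against EGFP, Rac1 spans 0 in both fusions.

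The set-adjusted calls differed in how far they depended on single arrays. Cyba, Ncf4 and Rac2 in NUP98-CDX4 passed in 9 of 9 fits that each left out 1 array, with adjusted p of at most 0.0143, 0.0213 and 0.0247. Cybb probe 1 in NUP98-CDX4 passed in 3 of 9, and lost its call without any one of the NUP98-CDX4 or EGFP arrays (adjusted p 0.0503 to 0.145). Ncf1 probe 1 in NUP98-CDX4 passed in 5 of 9, and missed without NUP98-CDX4 replicate 3 (0.0734) or EGFP replicate 1 (0.089), 2 (0.0674) or 3 (0.0514). In NUP98-CDX1, Ncf1 probe 1 passed in 3 of 9, and missed without NUP98-CDX1 replicate 1 (0.0701) or 3 (0.131), NUP98-CDX4 replicate 2 (0.0563), or any EGFP array (0.0887 to 0.118). Ncf4 there passed in 5 of 9, and missed without NUP98-CDX1 replicate 3 (0.136) or any EGFP array (0.0511 to 0.0915). Without all 3 arrays that carry Xist, 6 arrays were left and NUP98-CDX4 had only its replicate 3, which is then assumed to vary like the other groups. Ncf1 probe 1 in NUP98-CDX4 was the one subunit probe with a set-adjusted p under 0.05 there, at -0.82 (0.0352). Cyba stood at -0.69 (0.0749), Rac2 at -0.58 (0.0922) and Ncf4 at -0.58 (0.105), against -0.70, -0.65 and -0.59 with all arrays. Cybb probe 1 had an adjusted p of 0.121.

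Between the fusions, 0 of the 7 tested probes passed with or without the set term (limma), against 0.139% and 1.27% of all probes. At an unadjusted p under 0.05 there was 1 lower in NUP98-CDX4 without the term, and 4 with it. The 1 without the term was Ncf1 probe 2, near background, at -0.48 (95% interval -0.95 to -0.01, adjusted p = 0.762). Set-adjusted, it was at -0.45 (adjusted p = 0.39). By group mean, Ncf4 and Rac2 were lowest in NUP98-CDX4, then NUP98-CDX1, then EGFP. Without the set term, the neighbours NUP98-CDX4 and NUP98-CDX1 differed by -0.14 for Ncf4 (95% interval -0.48 to 0.21) and by -0.20 for Rac2 (-0.57 to 0.16). Set-adjusted, these differences were -0.06 and -0.28 (adjusted p 0.855 and 0.323). Cyba had the same order, with -0.55 between the fusions (-1.20 to 0.09) and -0.33 set-adjusted (adjusted p = 0.232). Ncf1 probe 1 was lowest in NUP98-CDX1, 0.43 below NUP98-CDX4 (-0.52 to 1.39 for NUP98-CDX4 minus NUP98-CDX1). Set-adjusted, that difference was 0.08 (-0.24 to 0.41), with -0.03 among brighter and 0.25 among dimmer arrays. For Rac1 the order was NUP98-CDX4, EGFP, NUP98-CDX1, with no neighbours apart. Cybb probe 1 lay lower on every NUP98-CDX4 array than on any NUP98-CDX1 array, the closest pair reading 5.11 and 5.12, as did 5.17% of all probes, and did not pass (adjusted p = 0.845).

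The oxidase is switched on by kinases and exchange factors, and its charge is balanced by a proton channel. Of 32 such activators and partners, 20 were measured. In NUP98-CDX1 none passed (2 lower and 2 higher at an unadjusted p under 0.05), beside 0.449% of 10018 genes lower and 0.699% higher, and the median was -0.14 against 0.03 for all genes. Prkcb alone was lower there with the set term. Set-adjusted counts of the lists, here and below, have no share over all genes beside them. They are thus not read as a trait of the listed genes. Over all probes, 2.45% were lower with the term in NUP98-CDX1 and 7.23% in NUP98-CDX4. In NUP98-CDX4, 3 fell and none rose, beside 3.24% of all genes lower and 2.6% higher, with a median of -0.16. Set-adjusted, 5 were lower in NUP98-CDX4, which added the kinase Prkcd and the exchange factor Tiam1, and 1 was higher, the kinase Prkca; Prkcd and Prkca are named after their values were seen. Prkcb, a kinase that phosphorylates the Ncf1 product, read 8.30, 8.35 and 7.55 in NUP98-CDX4 and 10.05, 9.98 and 10.00 in EGFP, and fell by 1.94 (3.85-fold lower, adjusted p = 0.00133). Hvcn1, the proton channel that offsets the charge of the electrons, read 9.07, 8.94 and 8.03 in NUP98-CDX4 and 10.48, 10.48 and 10.32 in EGFP, and fell by 1.74 (3.35-fold lower, adjusted p = 0.00426). In NUP98-CDX1 these lay between, at 9.08 to 9.41 for Prkcb and 9.59 to 9.72 for Hvcn1, and did not pass (adjusted p 0.17 and 0.277); set-adjusted, Prkcb did (0.0405) and Hvcn1 did not (0.12). Pik3cd, a phosphoinositide kinase of blood cells, fell by 0.56 in NUP98-CDX4 (adjusted p = 0.0464), a call missed in 8 of 9 fits that left out 1 array (highest adjusted p 0.152).

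Of 9 other oxidase family genes only Noxo1, an organizer related to Ncf1, passed the filter; it lay 0.06 below EGFP in NUP98-CDX4 (adjusted p = 0.992) and 0.85 below in NUP98-CDX1 (adjusted p = 0.48; 0.0259 with the set term). Noxo1 was near background, detected on every brighter-set array and on no dimmer-set array. In NUP98-CDX1 only replicate 3 detected it, so the set-adjusted call rests largely on undetected readings. Of 24 genes that handle superoxide and peroxide, 19 were measured and 0 passed in either fusion (limma; 3 lower in NUP98-CDX1 and 4 lower in NUP98-CDX4 at an unadjusted p under 0.05). With the set term 3 were lower in each, Gclm and Nqo1 in both, Hmox1 in NUP98-CDX1 and Srxn1 in NUP98-CDX4. Gclm, for glutathione synthesis, differed by -0.73 in NUP98-CDX1 and -0.75 in NUP98-CDX4, with set-adjusted p of 0.0312 and 0.00427.

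Of 15 transcription factors known to act on oxidase genes, 14 were measured. In NUP98-CDX1 1 rose, Hoxa9, and in NUP98-CDX4 3 rose and 2 fell. Cebpb was also lower with the set term in NUP98-CDX1 (adjusted p = 0.0468), and in NUP98-CDX4 4 were higher and 3 lower, which added Elf1 (named after its values were seen) and Spi1. Hoxa9, a homeobox factor of primitive blood cells, read 9.39, 9.53 and 9.58 in NUP98-CDX1, 10.22, 10.24 and 10.33 in NUP98-CDX4, against 6.60, 7.24 and 8.27 in EGFP. Its difference was 2.13 in NUP98-CDX1 (4.38-fold, adjusted p = 0.0269, missed in 6 of 9 fits that left out 1 array) and 2.90 in NUP98-CDX4 (7.44-fold, adjusted p = 0.00157). Hoxa10, which represses Cybb and other oxidase genes in human myeloid cells, was detected on all 3 NUP98-CDX4 arrays (5.93, 6.18 and 6.09) and on none in the other groups. There it was at least 1.63-fold higher than in EGFP (adjusted p = 0.00133). It passed the filter only through NUP98-CDX4, the group where it was high, so its p is not read as support. Satb1, a chromatin organizer named here after its values were seen, to complete the count, rose by 1.18 (adjusted p = 0.0268; missed in 4 of 9 such fits). Cebpe, a factor of late granulocyte maturation, read 8.94, 8.75 and 8.32 in NUP98-CDX4 and 10.99, 10.84 and 10.73 in EGFP, and fell by 2.19 (4.55-fold lower, adjusted p = 0.00133). Cebpb fell by 0.89 (adjusted p = 0.0118), a call missed without NUP98-CDX4 replicate 3 or EGFP replicate 2 (highest adjusted p 0.0598). Spi1, the gene of PU.1, lay below every EGFP array in both fusions, by 0.52 (NUP98-CDX1) or 0.53 (NUP98-CDX4), and did not pass (adjusted p 0.32 and 0.176); set-adjusted, it passed in NUP98-CDX4 (0.0457) and not in NUP98-CDX1 (0.139).

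**Figure D3:**
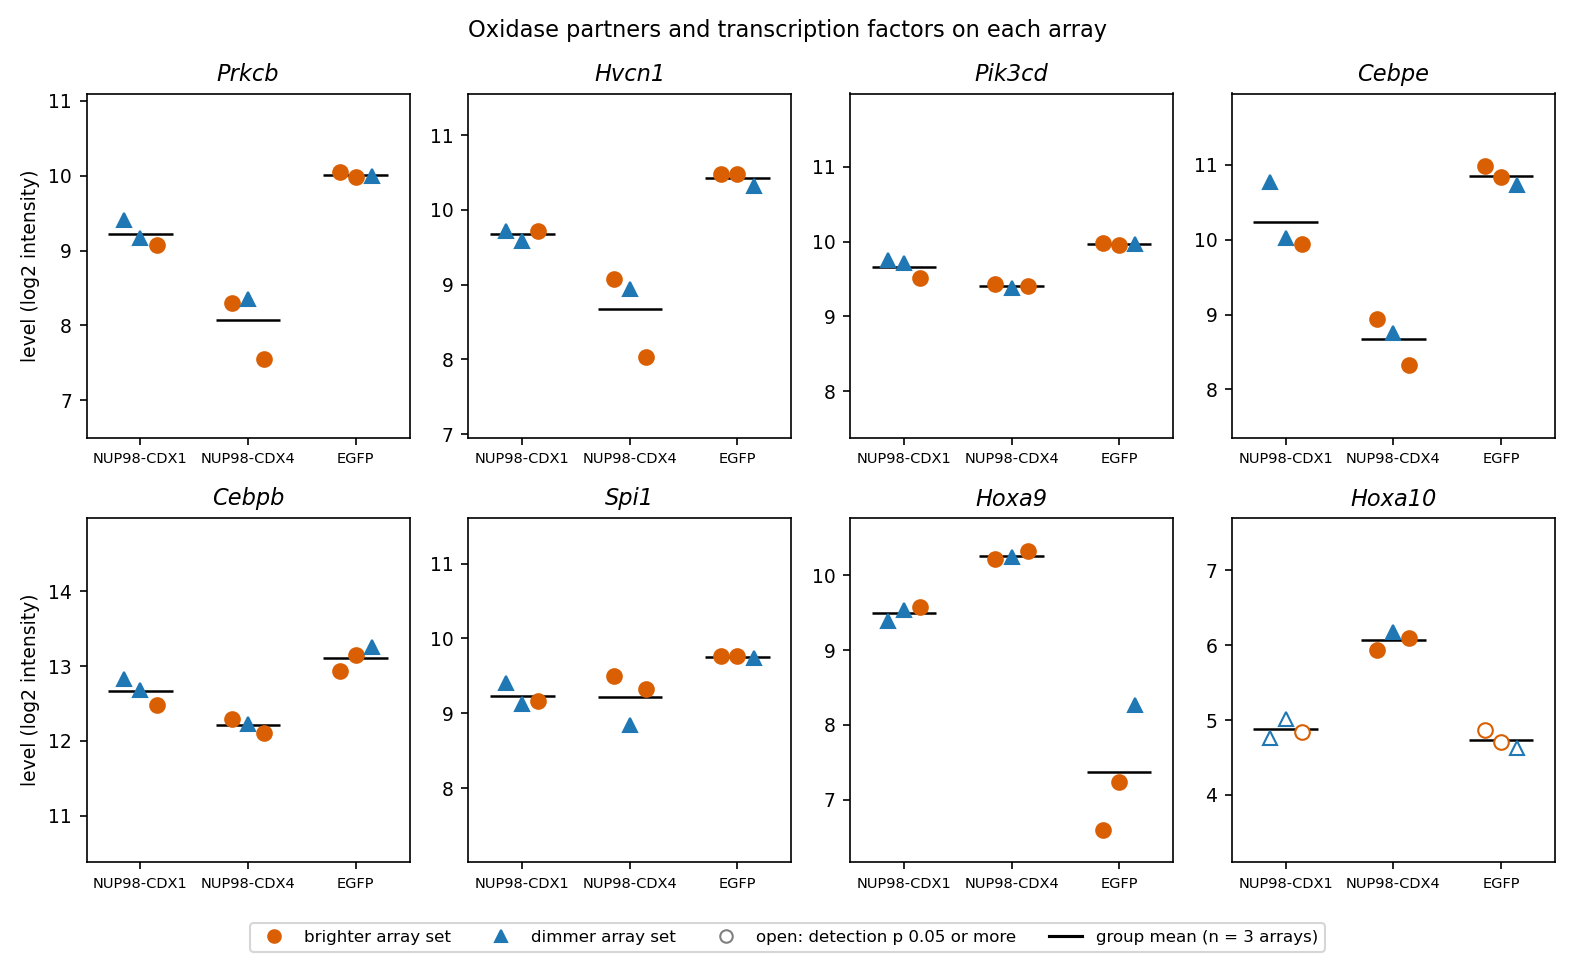
Level (log2 normalized intensity) of 3 oxidase partners and 5 transcription factors on each array, by group, with the group mean as a line; each panel spans the same range of log2 units. Prkcb, Hvcn1 and Cebpe lie lowest in NUP98-CDX4, Hoxa9 lies highest there, and Hoxa10 is detected there only.

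Genes of maturing phagocytes had larger median differences than the subunits, a contrast given as a description. Late neutrophil genes (20 of 25 measured) fell in 8 cases for NUP98-CDX1 and in 16 for NUP98-CDX4, with none higher past the threshold; with the set term 10 and 16 were lower, and Cxcr2 (named after its values were seen) was higher in NUP98-CDX4. Their medians were -1.69 and -2.95, or -1.69 and -2.60 with undetected groups at the floor. Their summed linear level was 43800 to 51100 in NUP98-CDX1, 8070 to 19600 in NUP98-CDX4 and 104000 to 119000 in EGFP, with no overlap. Stfa2, a neutrophil stefin, fell by 4.08 in NUP98-CDX1 and 6.61 in NUP98-CDX4 (adjusted p 0.000162 and 3.95e-06; detected on 1 of 3 NUP98-CDX4 arrays). Mmp9 and Stfa2l1, counted as lower in both fusions, were detected in EGFP alone and passed the filter only through that group. Monocyte and macrophage genes (22 of 25) fell in 4 cases and rose in 1 in NUP98-CDX1, and fell in 14 in NUP98-CDX4. Set-adjusted, 14 were lower and 1 higher in NUP98-CDX1, and 18 lower in NUP98-CDX4, beside 2.45% and 7.23% of all probes lower. Their sums were 76200 to 89600, 34700 to 63700 and, in EGFP, 102000 to 110000. Adgre1, a surface marker of macrophages, fell by 2.06 in NUP98-CDX4 (adjusted p = 0.00103). In NUP98-CDX1 the 4 were Adgre1, Ctss, Ms4a7 and Klf4 and the 1 that rose was Cd14, of which Klf4 and Cd14 are named after their values were seen; each of the 5 calls was missed in 6 or 7 of 9 fits that left out 1 array. Of these 5 genes, Klf4 was detected in EGFP alone and passed the filter only through that group. In the same list, C1qa and Marco (named after their values were seen) were each detected on no array of at least 1 group. The part that these cell types have in the subunits' levels was not tested.

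Mast cell genes (11 of 12) fell in 4 cases for NUP98-CDX1, the proteases Cma1, Cma2, Mcpt4 and Tpsb2 (the last named after its values were seen), and in 8 for NUP98-CDX4, with the same counts under the set term. Tpsb2 was detected in EGFP alone, so it passed the filter only through that group. Cma1, Cma2 and Mcpt4 were detected on no NUP98-CDX4 array. Eosinophil and basophil genes (7 of 11) fell in 0 cases for NUP98-CDX1 (limma; 3 lower at an unadjusted p under 0.05) and in 2 for NUP98-CDX4, Prg2 (missed without EGFP replicate 2, adjusted p = 0.0501) and Prg3. Set-adjusted, 3 were lower in NUP98-CDX1 (Prg2, Prg3 and Epx) and 5 in NUP98-CDX4, where Mcpt8 and Prss34 were added. Epx, Mcpt8 and Prss34 are named after their values were seen. Epx was detected in EGFP alone and passed the filter only through that group. Stem and progenitor genes (8 of 12) rose in 0 cases for NUP98-CDX1 (limma; 2 higher at an unadjusted p under 0.05) and in 2 for NUP98-CDX4, Meis1, by 1.78, and Mllt3, by 1.26 (missed without NUP98-CDX4 replicate 1 or EGFP replicate 1 or 2). Both also passed with the set term in NUP98-CDX1 (adjusted p 0.0146 and 0.0131). Genes shared by blood cells (8 of 8) passed in 0 cases in either fusion (1 lower in each at an unadjusted p under 0.05), and with the set term 1 was lower in NUP98-CDX4, Spi1. All 8 were detected on every array, and their summed level overlapped, at 54100 to 56700, 53300 to 58500 and, in EGFP, 55900 to 59700. Of erythroid genes 3 of 8 were measured, of B, T and NK cell genes 2 of 10, and of stroma and endothelium genes 2 of 8. Among these, Pecam1 rose in NUP98-CDX4 by 0.62 (adjusted p = 0.0451, missed in 8 of 9 fits that left out 1 array) and the others did not pass.

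**Figure D4:**
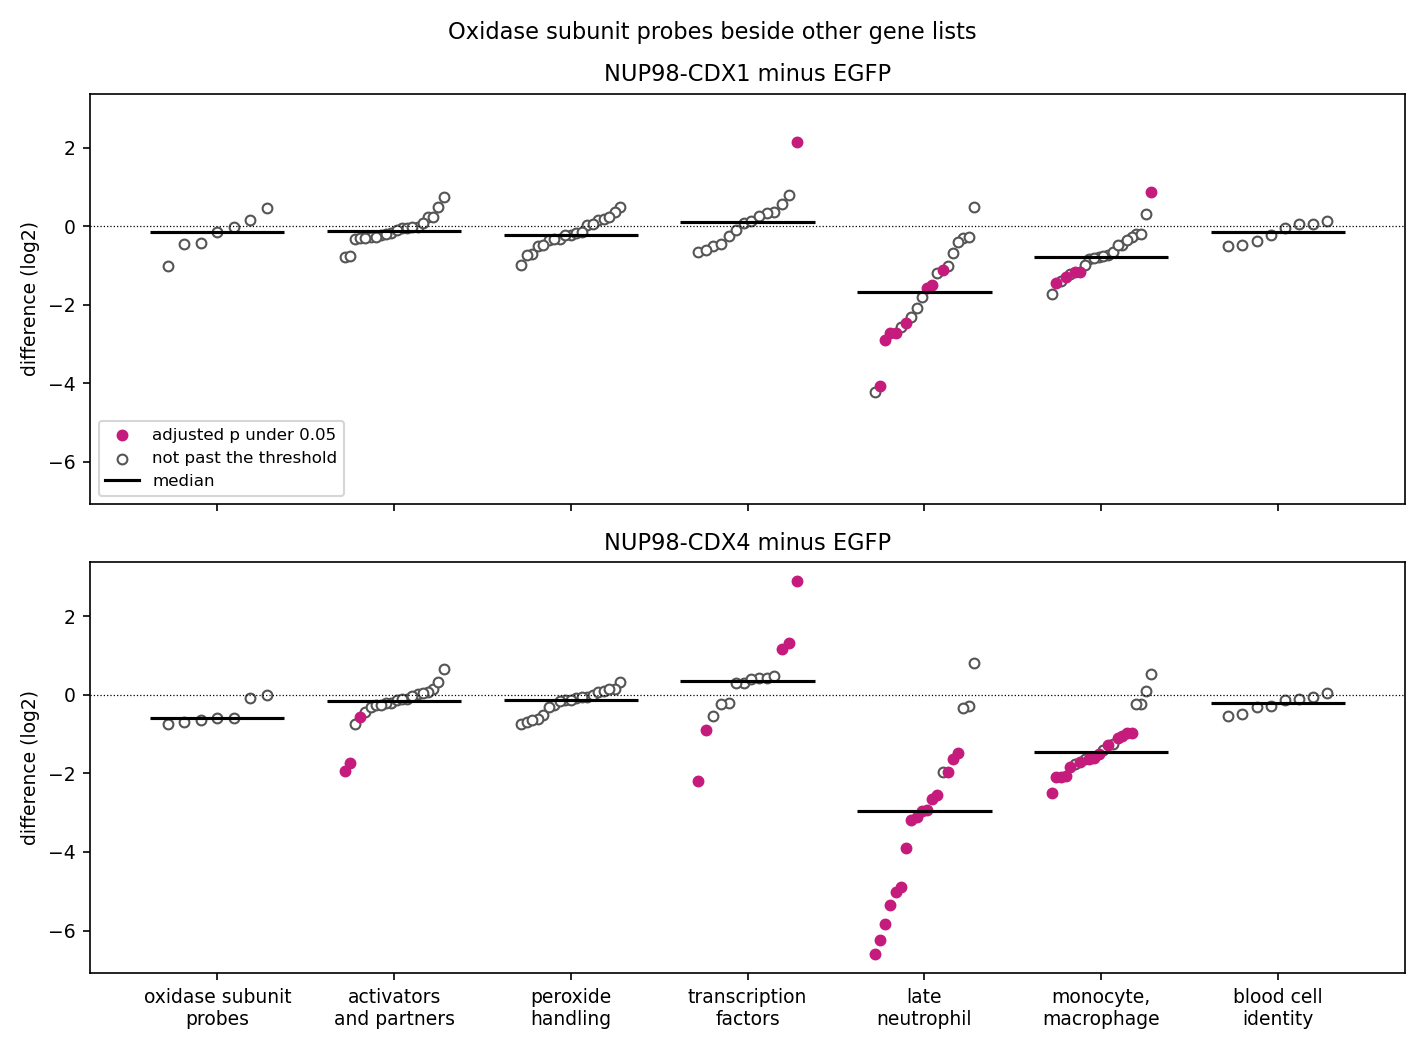
Log2 difference from EGFP of the subunit probes and of each list of partner and marker genes in NUP98-CDX1 and NUP98-CDX4. The subunits, with medians of -0.15 and -0.59, are level with the genes shared by blood cells (-0.14) in NUP98-CDX1 and lie below them (-0.21) in NUP98-CDX4; the late neutrophil genes have medians of -1.69 and -2.95.

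The genes whose pattern was most like that of each member were found by Pearson's r over the 9 arrays after the set term was removed, among 624 genes whose group means differed by at least 1 on the log2 scale. For Ncf4 they were Olfm4 (r = 0.991), Mmp9 (0.991) and Ampd3 (0.987), with Olfm4 and Mmp9 known as products of neutrophil granules. Both were detected in EGFP alone and passed the filter only through that group, so their p-values are not read as support. Olfm4 was at least 2.29-fold lower in NUP98-CDX1 (adjusted p = 0.00634) and at least 2.21-fold lower in NUP98-CDX4 (adjusted p = 0.00136). Mmp9 was at least 2.48-fold and 2.39-fold lower in NUP98-CDX1 and NUP98-CDX4. For Rac2 they were Tdrd5 (0.992), Msrb1 (0.981) and Ccl6 (0.978), the last a chemokine of myeloid cells that fell by 1.83 in NUP98-CDX4 (adjusted p = 0.00145). For Cyba they were Inhba (0.986), Tdrd5 (0.977) and Slc37a2 (0.976), and for Ncf1 probe 1 Zc3h12d (0.977), Cd74 (0.956) and Ifitm6 (0.938). Inhba and Tdrd5 were detected on no NUP98-CDX4 array, and Slc37a2 and Ampd3 there only on replicate 2. Their r values thus rest in part on background readings. Cybb, detected on 3 arrays, and Rac1, whose group means differed by at most 0.10 with the set term removed, are left out here. The 9 points share the groups and the normalization, so these values describe likeness only.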

How the data were processed

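The intensity of each probe was taken from the authors' non-normalized table, made with GenomeStudio per the submitters' processing notes (version not given in the sources used here). Each detection p-value is the deposited one. Processed intensities that the authors deposited, with scale and centring unstated, served as an alternative only. Background correction and quantile normalization used neqc (limma 3.58.1, R 4.3.3, data.table of version 1.17.8, offset 16) on the log2 scale. The 19472 probes with a detection p under 0.05 on 3 or more of the 9 arrays were tested with limma's moderated test on 3 group means over all 9 arrays, Benjamini-Hochberg adjusted over all of them, at a threshold of 0.05. The scripts were tested on simulated data.

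Where a group detected a probe on 0 of 3 arrays, its fold is a bound: its arrays were each lifted to the lowest signal detected there. Array sets came from clustering. A gene outside the members is its brightest probe, and up to 4 genes with the smallest adjusted p were named per list, and the 3 most alike genes per member; clone-type symbols were left out of the last, a choice made after the values were seen. Genes not detected by the filter were not measured. The members, lists and motifs were chosen with earlier results of these data known. Replicate numbers did not pair the samples. Alternatives were the array set, the replicate block, filters, normalization, offset, probe choice, array weights and each array left out; the set-adjusted fits without single arrays, and those without the arrays with Xist, were added after the data were seen.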

Additional observations from a re-analysis of the deposited data

How the results depend on the processing

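Without the array set as a term, 175 probes passed for NUP98-CDX1 against EGFP, 944 for NUP98-CDX4 against EGFP and 27 between the fusions, with 0 subunit probes in each. The set term gave 939, 2943 and 247, with 2, 5 and 0 subunit probes; the brighter set alone gave 72, 1448 and 13, with 2 subunit probes for NUP98-CDX4; the dimmer set alone gave 6, 143 and 4, with 0. NUP98-CDX1 has 1 array in the brighter set, and NUP98-CDX4 and EGFP have 1 each in the dimmer set, so these fits, like those without the arrays with Xist, assume that a lone array varies like the other groups. With no detection filter, 105 and 13 passed for NUP98-CDX1 and between the fusions, and with detection on all 9 arrays 82 and 14; each, like the brightest probe per gene, called 1 subunit probe for NUP98-CDX4. No background correction, offset 50 and the authors' processed values each called 2 there. With only the 2 groups compared, 5 passed between the fusions. Array weights gave 7020, 2991 and 5393, with 5, 3 and 5 subunit probes; the lowest weights, 0.291 to 0.293, fell on the arrays alone in their set within a group. Leaving out 1 array gave 44 to 193, 455 to 960 and 2 to 49, with 0 subunit probes, and with the set term 252 to 932, 1660 to 3161 and 28 to 240, with 0 to 2, 3 to 5 and 0. Without the 3 arrays with Xist, 37, 276 and 11 passed, and with the set term 874 and 219 for NUP98-CDX1 and between the fusions, with 1 subunit probe for NUP98-CDX4. The cause of these shifts was not tested.

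The replicate numbers did not pair the samples (correlations of deviations -0.78 to 0.66); the replicate block gave 45, 572 and 2 probes and 0 subunit probes.

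Differences that turned sign belonged to values that were not called in any fit with the turned sign. Against EGFP in NUP98-CDX1, Cybb probe 1 turned to 0 in the brighter set, 0.41 with array weights and 0.02 without the arrays with Xist, and ranged from -0.40 to 0.39 (and -0.26 at the lowest without the set term) as single arrays were left out. Cyba turned to 0.15 with array weights, and ranged from -0.44 (-0.33 without the set term) to 0.08. Rac1 ranged from 0 to 0.32. In NUP98-CDX4, Ncf1 probe 2 turned to 0.68 in the dimmer set and ranged from -0.28 (-0.20 without the set term) to 0.12. Rac1 turned to 0.03 with the set term and without the arrays with Xist, and ranged from -0.17 to 0.08. Noxo1 turned to 0.02 with array weights and 0.13 without the arrays with Xist, and ranged from -0.38 to 0.26. In NUP98-CDX1, Prss34 turned to -0.16 in the dimmer set and ranged from -0.02 to 1.38, and Elf1 turned to -0.12 with array weights. Cd14 in NUP98-CDX4 turned to -0.10 without the arrays with Xist and to -0.05 when the set term was added to that. Between the fusions, Ncf1 probe 1 turned to -0.03 in the brighter set and, with the set term and without the arrays with Xist, to -0.26, and ranged from -0.06 to 0.81; Rac1 turned to 0.01 there.

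The direction of Ncf4, Rac2 and Ncf1 probe 1 was lower than EGFP in both fusions under every alternative run. In NUP98-CDX4 the same held for Cyba and for the readings of Cybb probe 1. The alternatives reuse the same arrays. With 3 arrays per group, an unexplained array set and Cybb and Ncf1 probe 2 near background, small differences of those probes cannot be resolved.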
